A study of Mus musculus with 8 samples.

Results

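The G2/M regulators and spindle genes are a list of 36 mouse genes that act between the end of DNA replication and cell separation: cyclins and CDK1, mitotic kinases, spindle checkpoint and anaphase genes, the chromosomal passenger complex, kinetochore, spindle and cytokinesis genes, Top2a and Mki67. They were chosen by symbol, with the Kif kinesins left out, and every probe carrying one of those symbols was taken. All 36 genes were on the array and passed the signal filter, with 51 probes of 55681 and 36 of 23121 tested features, of which 14631 were named genes. The genes lie on 15 chromosomes.

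Total RNA from whole CD-1 mouse embryos at gestational day 9 was hybridised to 1-colour Agilent arrays. In the treated group, 4 arrays came from embryos of dams given 400 mg/kg hydroxyurea. In the other group, 4 arrays came from embryos of dams given saline. Injection was intraperitoneal, and both groups were collected 3 h later at the same gestational day and in the same outbred stock. The design names 4 independent experiments but does not tie an array to one, and no label gives the litter or dam behind an RNA. The replicate numbers used here are therefore only names, and the p-values measure the spread between these arrays. The drug reached the embryos through the dam, and whole embryos mix all tissues.

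CDK1 bound to B-type cyclins drives entry into mitosis, CDC25 phosphatases switch it on, and Polo-like and Aurora kinases mature the centrosomes and shape the spindle. The spindle checkpoint holds the anaphase-promoting complex in check until every kinetochore is attached. CDC20 then activates that complex, which destroys cyclin B and securin so that the sister chromatids part. In mammalian cells many of these genes are transcribed from late S phase into mitosis through promoters with CCAAT boxes, bound by NF-Y, and a cell cycle homology region (CHR), bound by MuvB complexes with B-MYB and FOXM1 or, as the DREAM complex, in their repressed state. Most cells of an embryo at organogenesis are dividing, and hydroxyurea blocks ribonucleotide reductase and so the supply of DNA precursors.

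Signals are given as log2 of the processed spot signal minus the array's 75th percentile, called log2 signal below, so that 0 is the brightness at that percentile. A difference is hydroxyurea minus saline, on the log2 scale, with its standard error (SE) over 4 arrays a group. A gene was called when limma's adjusted p (Benjamini-Hochberg over all 23121 features) was under 0.05. Brightness depends on the probe, so levels are compared between arrays and never between genes. The share of spots well above background was 48.7% to 57.4% on the hydroxyurea arrays and 53.6% to 62.3% on the saline arrays. The 75th percentile signal was 249 to 480 on the hydroxyurea arrays and 302 to 516 on the saline arrays. The arrays lay on 2 slides with 2 of each group on each. The 36 genes were well above background on all 8 arrays, except Cenpf, which was so on 7.

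In hydroxyurea embryos 13 of the 36 genes were lower and 0 were higher. These were Ube2c, Hmmr, Prc1, Tpx2, Racgap1, Cenpf, Aspm, Aurka, Cdc20, Nusap1, Pttg1, Cenpe and Cdc25b, with levels from 40.0% to 65.3% of the saline level. The other 23 did not pass the test, though 33 of all 36 differences (91.7%) were below 0, against 45.9% over all features. The 13 are 36.1% of the list, where 3.4% of all features and 2.03% of named genes were called lower and 2.78% of all features were called higher. At an unadjusted limma p under 0.05, 25 genes were lower and 0 higher. Of all features, 22% had a limma p at or below the 0.039 of Espl1, in either direction. For the 0.058 of Ccnf that share was 27%. The median difference of the list was -0.61, while that of all features was 0.04, with the central 95% of features between -1.32 and 0.94. In 21 genes (58.3%) every hydroxyurea array lay below every saline array, against 7.63% of all features, and these 21 included all 13 called genes. In embryo RNA, fewer cells in G2 and mitosis and less of these RNAs per cell cannot be told apart.

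The number of calls depended on single arrays. It was 5 without saline array 3 or 4, 6 without hydroxyurea array 4, and 7 without saline array 1 or 2. It was 10 without hydroxyurea array 1, and 13 without hydroxyurea array 2 or 3. The share of all features called lower moved too. It was 1.54% without hydroxyurea array 1, 7.64% without hydroxyurea array 2, 2.47% without hydroxyurea array 3 and 1.35% without hydroxyurea array 4. Without saline arrays 1 to 4 in turn it was 2.07%, 1.55%, 1.54% and 1.79%. Ube2c, Hmmr, Tpx2, Prc1 and Racgap1 were called with any 1 array left out. The count was 0 within either slide alone, where 2 arrays stood against 2. Over all features, 30 were called lower and 29 higher on slide 1, and 3 lower and 0 higher on slide 2. At an unadjusted p under 0.05, 11 of the genes were lower on slide 1 and 14 on slide 2. The share of all features at that p within a slide was not counted. The 13 called genes had a negative difference on both slides, as had 32 of the 36, with list medians of -0.62 on slide 1 and -0.52 on slide 2. The interaction of treatment with slide was called for 0 features (0%), with 218 of 23121 features, and 0 of the 36 genes, at an unadjusted p under 0.05 in limma. With 2 arrays of each group on a slide, these counts do not show that the slides were alike.

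**Figure D1:**
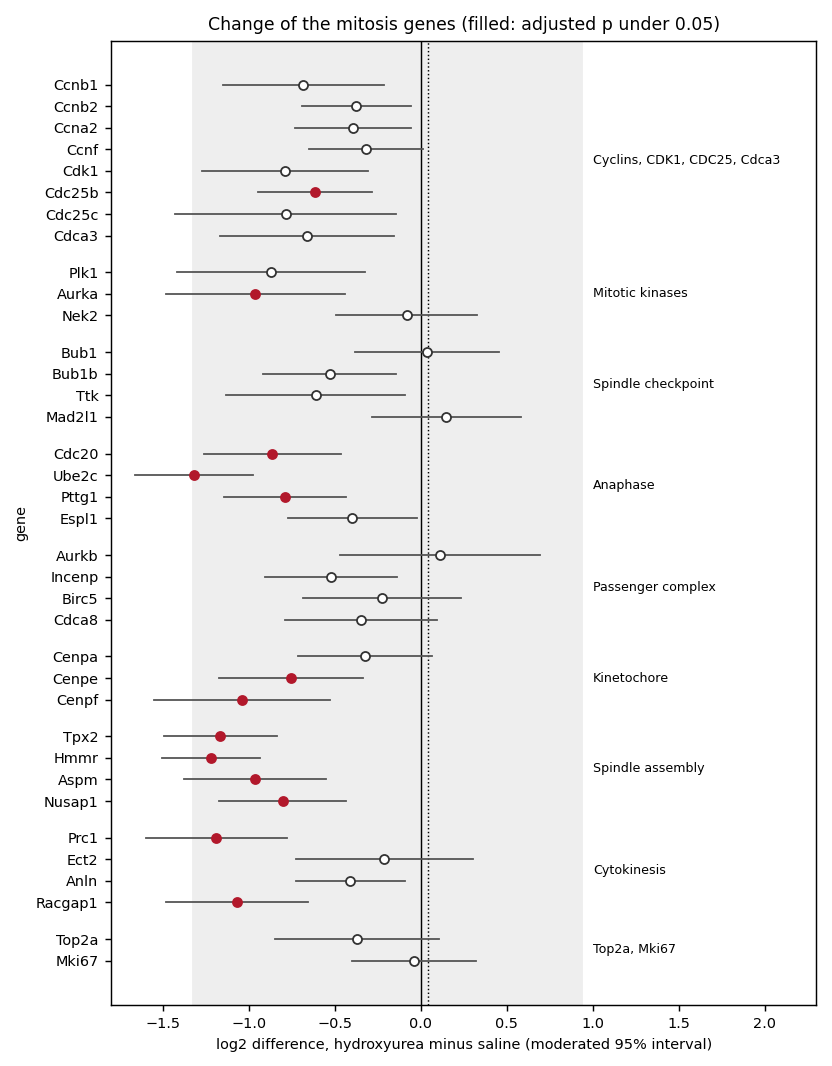
Difference in log2 signal, hydroxyurea minus saline, for each of the 36 genes by role. Points are limma estimates, lines their moderated 95% intervals, filled points the 13 genes called at adjusted p under 0.05, the grey band the central 95% of all features and the dotted line their median. All filled points lie left of 0, between -1.32 and -0.62, and Bub1, Mad2l1 and Aurkb are the 3 points right of 0.

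The promoters are shown here because CHR and CCAAT boxes are the elements that these genes are known to share. Promoter windows from 250 bases before to 50 after the gene start (RefSeq, GRCm38.p6) matched 31 of the 36 genes, 12 of them called. Aurkb, Ccna2, Incenp, Tpx2 and Cdc25c were not matched. A CHR was searched as TTTGAA or TTTAAA or TTCGAA and a CCAAT box as CCAAT, both on either strand, where TTTAAA and TTCGAA read the same on both. The 250 bases before the start follow for Ube2c and Cdc20, which activate anaphase, Hmmr, which was among the most lowered, Ccnb1 and Cdk1, the mitotic cyclin and kinase, Mki67, which was not called, and Nusap1, which had no match. They were picked after the values were seen. Capitals mark CHR and CCAAT matches on either strand. The windows are Ube2c chr2:164769679-164769928 on the plus strand, Cdc20 chr4:118437344-118437593 on the minus strand, Hmmr chr11:40733438-40733687 on the minus strand, Ccnb1 chr13:100786487-100786736 on the minus strand, Cdk1 chr10:69352913-69353162 on the minus strand, Mki67 chr7:135716380-135716629 on the minus strand and Nusap1 chr2:119618048-119618297 on the plus strand, each printed 5′ to 3′ in the direction of transcription.
Ube2c: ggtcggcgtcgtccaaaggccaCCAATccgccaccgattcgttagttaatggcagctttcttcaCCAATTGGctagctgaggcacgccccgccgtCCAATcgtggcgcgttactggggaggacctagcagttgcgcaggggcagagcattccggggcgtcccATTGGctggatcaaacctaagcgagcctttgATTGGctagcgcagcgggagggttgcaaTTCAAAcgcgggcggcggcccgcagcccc
Cdc20: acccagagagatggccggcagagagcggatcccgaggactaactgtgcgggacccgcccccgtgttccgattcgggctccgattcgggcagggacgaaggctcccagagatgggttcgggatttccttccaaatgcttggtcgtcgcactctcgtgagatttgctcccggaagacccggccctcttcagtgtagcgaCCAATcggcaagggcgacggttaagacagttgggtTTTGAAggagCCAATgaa
Hmmr: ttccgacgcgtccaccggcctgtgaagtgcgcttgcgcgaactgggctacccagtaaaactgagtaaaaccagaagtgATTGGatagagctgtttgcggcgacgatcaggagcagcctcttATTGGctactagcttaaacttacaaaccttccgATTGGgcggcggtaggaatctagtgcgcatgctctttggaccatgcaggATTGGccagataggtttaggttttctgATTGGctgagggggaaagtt
Ccnb1: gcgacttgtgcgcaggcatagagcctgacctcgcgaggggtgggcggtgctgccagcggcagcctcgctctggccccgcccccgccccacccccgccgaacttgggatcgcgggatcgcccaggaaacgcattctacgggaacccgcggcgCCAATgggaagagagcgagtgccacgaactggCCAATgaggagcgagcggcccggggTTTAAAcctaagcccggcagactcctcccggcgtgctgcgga
Cdk1: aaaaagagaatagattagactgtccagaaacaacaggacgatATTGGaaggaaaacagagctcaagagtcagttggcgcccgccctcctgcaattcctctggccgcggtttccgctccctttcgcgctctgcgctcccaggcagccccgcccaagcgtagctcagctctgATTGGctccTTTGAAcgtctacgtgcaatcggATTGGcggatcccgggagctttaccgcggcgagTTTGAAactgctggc
Mki67: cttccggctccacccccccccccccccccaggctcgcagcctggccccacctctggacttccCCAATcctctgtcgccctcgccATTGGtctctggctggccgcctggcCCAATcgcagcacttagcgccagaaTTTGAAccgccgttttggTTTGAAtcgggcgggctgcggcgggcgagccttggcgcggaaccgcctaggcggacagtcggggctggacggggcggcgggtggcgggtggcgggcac
Nusap1: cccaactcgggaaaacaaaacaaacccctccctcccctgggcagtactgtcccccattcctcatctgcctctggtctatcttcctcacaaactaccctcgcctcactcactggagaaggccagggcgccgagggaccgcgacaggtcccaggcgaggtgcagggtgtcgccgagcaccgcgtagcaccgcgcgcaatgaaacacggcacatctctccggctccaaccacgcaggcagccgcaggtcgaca

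The Ube2c window held 6 CCAAT matches, of which a pair overlap in CCAATTGG, and 1 CHR that begins 29 bases before the start. Cdc20 had 2 CCAAT boxes around a TTTGAA that begins 18 bases before the start. Hmmr had 5 CCAAT boxes before its start and its only CHR after it, so no CHR is printed for it. Cdk1 had 2 CHRs and 3 CCAAT boxes, and Mki67 also had 2 CHRs and 3 CCAAT boxes. Ccnb1 had 1 CHR, a TTTAAA, and 2 CCAAT boxes.

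A CHR stood in 27 of the 31 genes with a promoter (87.1%, Wilson 95% interval 71.1% to 94.9%), against 24.7% of the 11600 tested named genes with a promoter. A CCAAT box stood in 26 of the 31 (83.9%), against 42.9%. Both stood in 25 (80.6%), against 10.4%, and neither in Pttg1, Nusap1 and Mad2l1, of which Pttg1 and Nusap1 were called. In the 100 bases around the start, 50 on each side, 25 of the 31 (80.6%) held a CHR, against 7.22% of tested named genes. That window was chosen after the others had been counted. With only the bases before the start, 17 of 31 (54.8%) held a CHR. The share with a CHR was 83.3% (10 of 12) among called genes and 89.5% (17 of 19) among the others, and that with a CCAAT box 10 of 12 and 16 of 19. The E2F site (TTCCCGC or TTGGCGC or TTCGCGC or TTGCCGC) stood in 16.1% of the genes and 18% of tested named genes. The GC box (GGGCGG) stood in 80.6% and 65.0%. A TATA box (TATAAA) stood in 0 of 31, with a Wilson upper bound of 11.0%, against 10% of tested named genes. A match is only a run of letters, and no binding was measured.

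The cyclins, CDK1 and its activators all had mean levels below saline, and 1 of 8 was called. Cdc25b, a phosphatase that activates CDK1 at the G2/M boundary, had log2 signals of 2.12, 2.15, 2.19 and 2.28 on hydroxyurea arrays 1 to 4, against 2.69, 2.65, 2.77 and 3.09 on saline arrays 1 to 4. The groups did not overlap. It fell by 0.62 on the log2 scale (SE 0.15, limma adjusted p = 0.042), to 65.3% of the saline level. The call was lost in 12 of 18 alternative settings counted by gene, slide as a block among them. With 1 array left out in turn, Cdc25b was called in 1 fit.

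Ccnb1, which encodes cyclin B1, had log2 signals of 4.79, 3.92, 4.70 and 4.24 in hydroxyurea embryos, against 4.92, 5.21, 5.10 and 5.16 in saline embryos. Arrays 2 and 4 of the hydroxyurea group were the low ones, and the groups did not overlap. The difference was -0.68 (SE 0.21, limma adjusted p = 0.086), so Ccnb1 was not called, and its 3 probes gave -0.52, -0.68 and -0.66. Cdk1, the kinase itself, had 2.40, 2.33, 3.21 and 2.69 in hydroxyurea embryos, against 3.27, 3.70, 3.47 and 3.35 in saline embryos. Hydroxyurea array 3 lay just below the lowest saline array. The difference was -0.79 (SE 0.21, adjusted p = 0.062 in limma). Cdk1's other probes gave -0.78 and 0.11, the last with an SE of 0.53. This last probe was dim, with mean log2 signals of -3.08 in hydroxyurea and -3.20 in saline embryos.

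Ccna2, which encodes cyclin A2 of S phase and G2, had 4.47, 4.00, 4.40 and 4.21 in hydroxyurea embryos, against 4.57, 4.66, 4.70 and 4.72 in saline embryos. The groups were apart, but by a small step, with a difference of -0.39 (SE 0.15, adjusted p = 0.14, limma). Ccnb2 (cyclin B2) differed by -0.37 and Ccnf (cyclin F, a ubiquitin ligase subunit) by -0.32. Cdc25c, the other CDC25 phosphatase listed, differed by -0.79 with overlapping groups. Cdca3, a trigger of mitotic entry, differed by -0.66. Their limma adjusted p-values were 0.11 to 0.22, and none of them passed.

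Of the 3 mitotic kinases Aurka was called. Aurka, which matures centrosomes and builds spindle poles, had log2 signals of 4.45, 3.64, 4.58 and 3.79 in hydroxyurea embryos, against 5.07, 5.08, 5.25 and 4.89 in saline embryos. The hydroxyurea arrays fell into a higher pair, 1 and 3, and a lower pair, 2 and 4, all below saline. Aurka fell to 51.3% of the saline level (log2 difference -0.96, SE 0.23, limma adjusted p = 0.043). The call was lost in 10 of 18 alternative settings, slide as a block among them. With 1 array left out in turn, Aurka was called in 2 fits.

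Plk1, the Polo-like kinase of mitotic entry and exit, showed the same pairs, with 5.37, 4.68, 5.67 and 4.801 in hydroxyurea embryos, against 6.08, 5.75, 6.29 and 5.90 in saline embryos. The groups did not overlap, yet the difference of -0.87 (SE 0.24) had a limma adjusted p of 0.067. It passed with normexp background correction, with quantile normalisation, with only probes well above background on all arrays, with slide row as a block and without hydroxyurea array 3. Nek2, a centrosome-splitting kinase, differed by -0.08 (SE 0.18, adjusted p = 0.82), and its groups overlapped.

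The spindle checkpoint genes were not called. Bub1b (BUBR1) and Ttk (MPS1), both kinetochore-linked checkpoint proteins, differed by -0.53 and -0.61, with limma adjusted p-values of 0.099 and 0.14. Bub1, a checkpoint kinase, and Mad2l1 (MAD2), which binds CDC20, differed by 0.04 and 0.15, with moderated 95% intervals of -0.38 to 0.46 and -0.29 to 0.58. The list held both directions, and all that reached an unadjusted p under 0.05 were the lower Bub1b and Ttk.

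Of the 4 genes of anaphase onset 3 were called, all lower. Ube2c, the E2 enzyme that primes ubiquitin chains for the anaphase-promoting complex, had log2 signals of 4.09, 3.85, 3.89 and 3.65 in hydroxyurea embryos, against 5.09, 5.41, 5.13 and 5.14 in saline embryos. The groups lay far apart for their spread. Ube2c fell by 1.32 (SE 0.15, limma adjusted p = 0.002), to 40.0% of the saline level, and its second probe gave the same difference of -1.32.

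Cdc20, the activator of that complex, had 5.50, 4.87, 5.53 and 5.27 in hydroxyurea embryos, against 6.03, 6.25, 6.24 and 6.10 in saline embryos. All hydroxyurea values were lower. It fell to 55.0% of the saline level (difference -0.86, SE 0.18, limma adjusted p = 0.024). Pttg1, which encodes securin, the separase inhibitor, had 5.09, 4.64, 4.96 and 4.85 in hydroxyurea embryos, against 5.44, 5.66, 5.78 and 5.81 in saline embryos. The groups did not overlap, and the difference was -0.79 (SE 0.16, adjusted p = 0.022). The other Pttg1 probe gave -0.04 (adjusted p = 0.94), so its call rests on 1 of 2 probes. That other probe was much dimmer, with mean log2 signals of -1.86 in hydroxyurea and -1.83 in saline embryos. Espl1, separase itself, differed by -0.40 (adjusted p = 0.18) and was not called.

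The chromosomal passenger complex had no called member among 4. Incenp, its scaffold, differed by -0.52 (limma adjusted p = 0.11) and by -0.57 on the other probe. Cdca8 (borealin) differed by -0.35 and Birc5 (survivin) by -0.22, and the other Birc5 probes gave 0.10 and 0.21. Aurkb, its kinase, differed by 0.11 with a moderated 95% interval of -0.47 to 0.69. Aurkb overlapped between the groups, while Aurka, the related kinase of the spindle poles, did not.

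**Figure D2:**
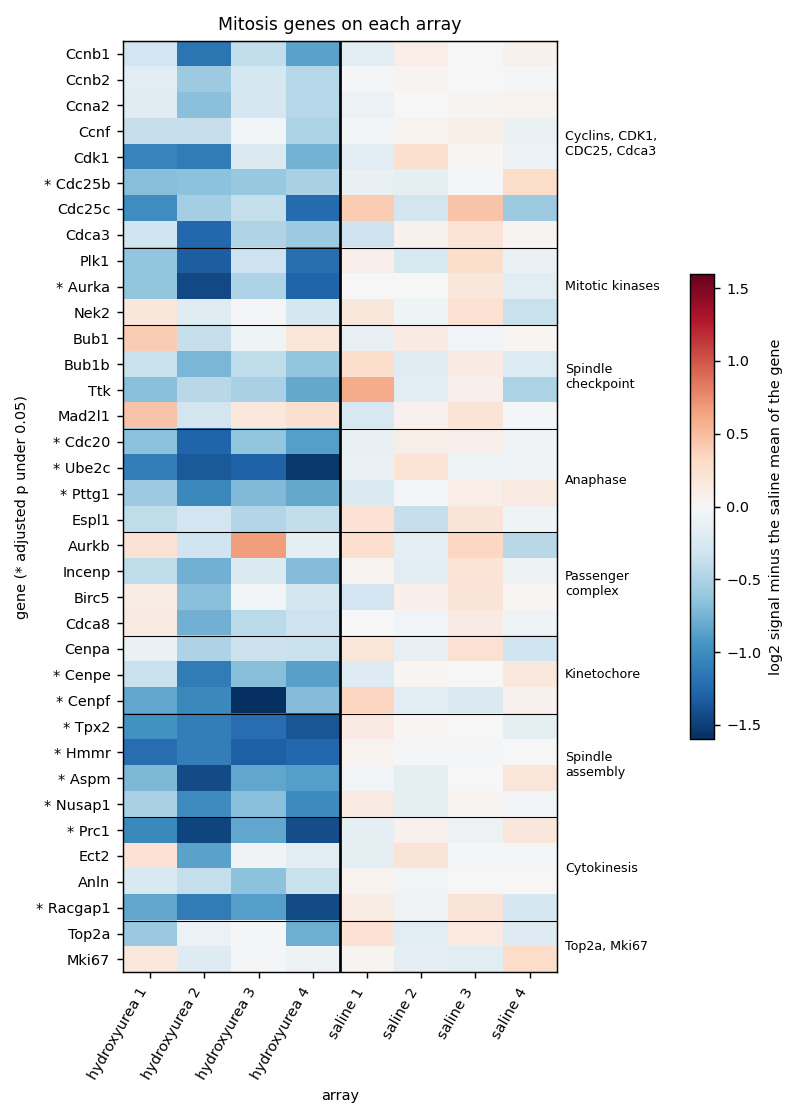
Log2 signal of each gene on each array, as the deviation from the gene's mean over the saline arrays, grouped by role, hydroxyurea arrays left of saline arrays. Blue is below and red above the saline mean, and asterisks mark the 13 called genes. Hydroxyurea arrays 2 and 4 are the bluest, with list medians of -0.77 and -0.69, against -0.41 and -0.42 on arrays 1 and 3.

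At the kinetochore 2 of 3 genes were called. Cenpe, a motor-containing kinetochore protein, had log2 signals of 4.46, 3.70, 4.13 and 3.95 in hydroxyurea embryos, against 4.61, 4.84, 4.83 and 4.98 in saline embryos. It was lower in every hydroxyurea array (difference -0.76, SE 0.19, limma adjusted p = 0.046). The call was lost in 12 of 18 alternative settings, among them median centring and slide as a block. With 1 array left out in turn, Cenpe was called in 2 fits. Cenpf, a large kinetochore and nuclear matrix protein, had -3.25, -3.44, -4.03 and -3.11 in hydroxyurea embryos, against -2.08, -2.60, -2.65 and -2.34 in saline embryos. The spots were dim, and the groups did not overlap. The difference was -1.04 (SE 0.23, adjusted p = 0.03), but it was not called with normexp background correction, where it shrank to -0.37, nor with quantile normalisation. In all, Cenpf lost the call in 10 of 17 alternative settings. Cenpa, the centromeric histone, differed by -0.32 (adjusted p = 0.28).

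The 4 spindle assembly genes were all called. Hmmr, a spindle-pole and microtubule protein, had log2 signals of 2.04, 2.15, 1.95 and 1.997 in hydroxyurea embryos, against 3.31, 3.22, 3.23 and 3.25 in saline embryos. Both groups were tight. Hmmr fell by 1.22 (SE 0.13, limma adjusted p = 0.0011), to 43.0% of the saline level, the lowest adjusted p of the list.

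Tpx2, which activates Aurora A and nucleates microtubules near chromatin, had 2.93, 2.80, 2.69 and 2.53 in hydroxyurea embryos, against 4.04, 3.92, 3.90 and 3.76 in saline embryos. The groups did not overlap. It fell by 1.17 (SE 0.15, adjusted p = 0.0029), to 44.6% of the saline level. Its other probe, also called, gave -2.38. That probe was much dimmer, with mean log2 signals of -2.68 in hydroxyurea and -0.30 in saline embryos. The gap of 1.21 between the probes had an exact two-sided permutation p of 0.029. It did not pass after adjustment over the 19 probe pairs (adjusted p = 0.271).

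Aspm, a spindle-pole protein needed for symmetric divisions of neural progenitors, had 1.81, 1.11, 1.70 and 1.66 in hydroxyurea embryos, against 2.49, 2.40, 2.53 and 2.73 in saline embryos. Hydroxyurea array 2 was the lowest. The difference was -0.97 (SE 0.18, limma adjusted p = 0.017). Nusap1, which bundles spindle microtubules, had 2.35, 1.86, 2.21 and 1.86 in hydroxyurea embryos, against 3.02, 2.73, 2.92 and 2.83 in saline embryos. It too was separate between the groups (difference -0.80, SE 0.16, adjusted p = 0.023), and its promoter, printed above, held neither motif.

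In cytokinesis Prc1 and Racgap1 were called and Ect2 and Anln were not. Prc1, which cross-links antiparallel microtubules, had log2 signals of 3.13, 2.69, 3.33 and 2.75 in hydroxyurea embryos, against 4.01, 4.23, 4.07 and 4.34 in saline embryos. It fell to 43.9% of the saline level (difference -1.19, SE 0.18, limma adjusted p = 0.0076), with no overlap.

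Racgap1, a subunit of centralspindlin, had 2.78, 2.49, 2.74 and 2.18 in hydroxyurea embryos, against 3.74, 3.56, 3.83 and 3.34 in saline embryos. The groups were separate, and its probes gave -1.07 (SE 0.18, adjusted p = 0.012) and -1.06. Ect2, the exchange factor that RACGAP1 recruits to activate RhoA, differed by -0.21 (adjusted p = 0.60). Anln (anillin), a scaffold of the contractile ring, differed by -0.41 (adjusted p = 0.12), with all hydroxyurea arrays below saline. Whether Prc1 and Racgap1 differed more than Ect2 and Anln was not tested.

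The general proliferation genes did not pass. Top2a, the topoisomerase that untangles replicated chromosomes, had log2 signals of 3.23, 3.74, 3.81 and 3.05 in hydroxyurea embryos, against 4.05, 3.64, 3.99 and 3.63 in saline embryos. The groups overlapped (difference -0.37, SE 0.21, limma adjusted p = 0.31). Mki67, the Ki-67 proliferation antigen, had 5.24, 4.87, 5.04 and 4.99 in hydroxyurea embryos, against 5.11, 4.91, 4.91 and 5.36 in saline embryos. It differed by -0.04, with a moderated 95% interval of -0.40 to 0.32. Its other probe gave -0.25, with an interval of -0.625 to 0.119, also not called. Whether Mki67 differed less than the called genes was not tested.

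Of the 51 probes 16 (31.4%) were called lower, against 4.3% of all 30677 probes past the filter. In 43 the difference was below 0, and 25 had every hydroxyurea array below every saline array. Over all features these shares were 45.9% and 7.63%, and over all probes they were not counted. Without hydroxyurea array 4 the count of called probes was 9, without saline array 1 or 2 it was 10, and without saline array 3 or 4 it was 8. Probes of one gene gave similar differences for most of the 11 genes with several. Over the 19 probe pairs, 1 reached an unadjusted exact permutation p under 0.05 and 0 passed after adjustment (smallest adjusted p = 0.271), where 70 relabellings allow no p below 0.029.

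**Figure D3:**
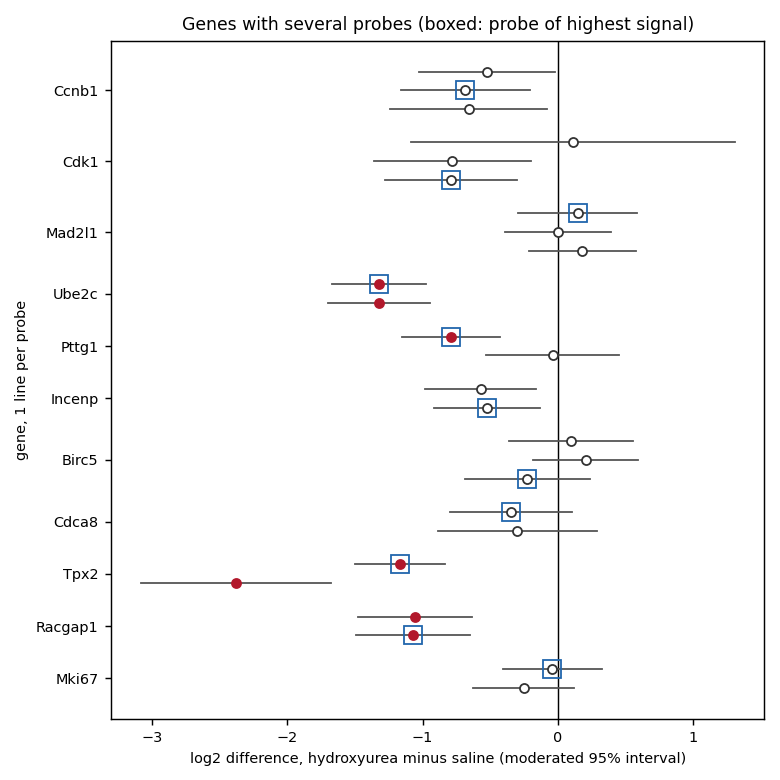
Difference in log2 signal, hydroxyurea minus saline, for every probe of the genes with several probes. Lines are moderated 95% intervals, filled points are called probes, and a box marks the brightest probe, which stood for the gene. Both Ube2c probes sit at -1.32, whereas the Tpx2 probes sit at -1.17 and -2.38 and the Pttg1 probes at -0.79 and -0.04.

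The list moved by different amounts on the hydroxyurea arrays. The median deviation of the 36 genes from the saline mean was -0.41, -0.77, -0.42 and -0.69 on hydroxyurea arrays 1 to 4, against -0.004, -0.04, 0.08 and -0.05 on saline arrays 1 to 4. Over all features that median was 0.12, -0.06, 0.08 and 0.04 on hydroxyurea arrays 1 to 4. On saline arrays 1 to 4 it was -0.04, 0.03, 0.04 and -0.03, so whole arrays shifted too. Hydroxyurea array 2 was the lowest of its group for 22 of the 36 genes, as it was for 41.1% of all features. Hydroxyurea arrays 2 and 4 lay in the second row of their slides and arrays 1 and 3 in the first, and arrays 2 and 4 lay in column 4 and arrays 1 and 3 in column 1, so that this order and the position on the slide cannot be told apart. The saline arrays lay in columns 2 and 3 only, so treatment and slide column cannot be told apart either. Row 1 of both slides gave a list median of -0.53 and row 2 one of -0.60, and 30 of the 36 genes had a negative difference in both rows. The median of all features was 0.10 in row 1 and -0.03 in row 2. Single genes could differ more, as Ccnb1 at -0.26 in row 1 and -1.10 in row 2, and Prc1 at -0.81 and -1.57. Others went the other way, as Cdc25c at -1.12 and -0.45, and Ttk at -0.93 and -0.29. Differences between the rows were not tested. Within groups the genes tended to deviate together over the 8 arrays, with a median Pearson r of 0.341 over the 630 gene pairs, which share array, scaling and extraction. The same value was not computed for pairs of other genes, so it does not set this list apart.

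**Figure D4:**
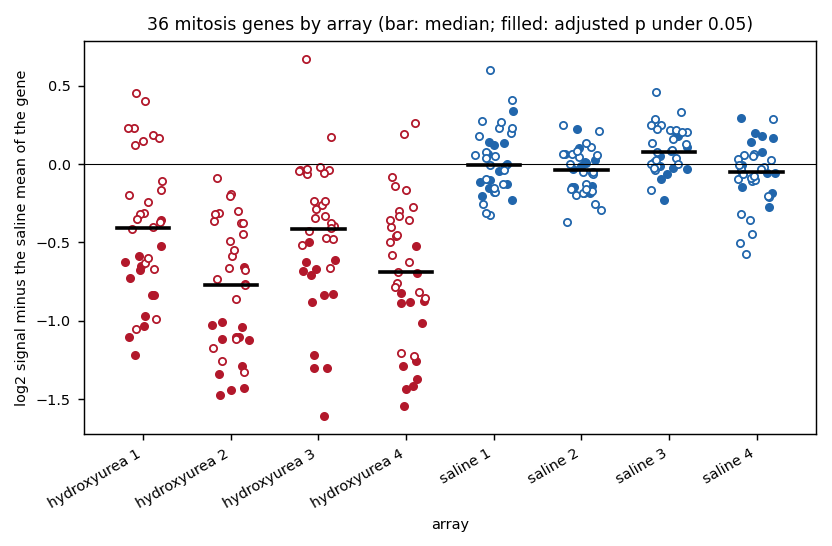
Deviation of each of the 36 genes from its saline mean (log2 signal) on each array, one point a gene, filled for the 13 called genes, with the list median as a bar. Hydroxyurea arrays are red and saline arrays blue. The bars of the hydroxyurea arrays lie between -0.77 and -0.41, below those of the saline arrays, which lie between -0.05 and 0.08.

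Beside these genes, 156 other genes of mitosis and its control and 33 of G1 and S phase were measured. They came from lists chosen by function. Of the 156, 8 were called lower and 7 higher, with a median difference of 0.08. Of the 33, 1 was lower and 2 higher, with a median of 0.21 and 5 values below 0. Over all features 3.4% were called lower and 2.78% higher, and 45.9% of the differences were below 0. The medians of both sets lay above 0, while that of the 36 genes lay below it. The 9 lower calls over these lists became 3 without hydroxyurea array 1, 15 without hydroxyurea array 2 and 2 without hydroxyurea array 4. They became 4 without saline array 1 or 2, and 3 without saline array 3 or 4. The 9 higher calls became 5 without hydroxyurea array 1 or saline array 2, 34 without hydroxyurea array 2, 3 without hydroxyurea array 4 and 6 without saline array 1. The balance of directions over these lists changed with single arrays.

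Lists with 0 calls in a direction also held genes at an unadjusted p under 0.05 in limma. Higher were 3 of 17 genes of the anaphase-promoting complex and 1 of 15 of cytokinesis. Lower were 5 of 37 kinetochore genes, 2 of 20 condensin and cohesin genes and 2 of 21 MuvB, FOXM1, E2F and NF-Y genes. Of all features, 22% had a limma p of 0.039 or less and 27% one of 0.058 or less, in either direction. The share by direction was not counted.

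Partners of the anaphase-promoting complex included 2 lower genes and 0 higher ones among 17, and no core subunit was called. These were Fzr1 (CDH1), its activator at mitotic exit, at -0.92 (limma adjusted p = 0.005) with -0.85 on its other probe, and Ube2s, its chain-elongating enzyme, at -0.73 (adjusted p = 0.026). Among 33 other centrosome and spindle genes 4 were lower and 1 higher. Fam83d, a spindle protein, differed by -1.20 (adjusted p = 0.014), Ckap2l by -1.42 and Kpna2, an importin that binds TPX2, by -0.85 (adjusted p = 0.021 for both). Gtse1, a microtubule and p53-binding protein, differed by 0.998 (adjusted p = 0.013). One gene of 15 in the other cytokinesis list was lower, Pimreg at -0.99 (adjusted p = 0.036).

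Regulators of CDK1 went in both directions, with 1 lower and 1 higher of 16. Wee1, the kinase that inhibits CDK1, differed by -0.70 (limma adjusted p = 0.023), and Mastl, which blocks the opposing phosphatase, by 0.60 (adjusted p = 0.031). Cdc25a differed by 0.32 (adjusted p = 0.27) and was not called. Of 21 genes of the MuvB, FOXM1, E2F and NF-Y regulators 0 were lower and 2 higher. Rb1, the retinoblastoma protein, differed by 1.27 (adjusted p = 0.0039), and E2f7, a repressor, by 0.98 (adjusted p = 0.018), though the other E2f7 probe gave -0.62. Foxm1 differed by -0.22 and Mybl2 (B-MYB) by 0.47, with adjusted p-values of 0.40 and 0.14.

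The other kinetochore genes, 37 in number, had a median of 0.01, with 0 lower and 1 higher, Cenpq at 0.96 (limma adjusted p = 0.014). Of 20 condensin and cohesin genes 0 were lower and 2 higher, the cohesin acetyltransferase Esco2 at 1.07 (adjusted p = 0.0058) and the condensin II subunit Ncapg2 at 0.71 (adjusted p = 0.034). In G1 and S phase Ccne1 (cyclin E1) differed by 0.91 and Slbp, the histone stem-loop binding protein, by 1.08, with adjusted p-values of 0.015 and 0.022. Cdk6 differed by -2.92 (adjusted p = 0.03), but it was well above background on 1 of 4 hydroxyurea arrays and 4 of 4 saline arrays.

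**Figure D5:**
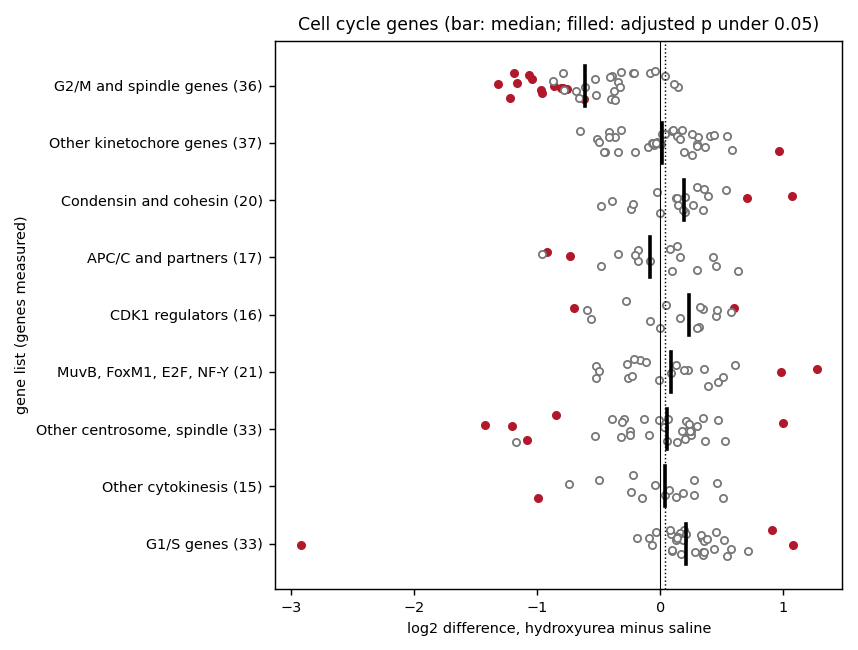
Difference in log2 signal, hydroxyurea minus saline, of the 36 genes and of 8 other cell cycle lists, one point a gene, filled where called, with the list median as a bar and the median of all features as a dotted line. The bar of the 36 genes lies at -0.61, and those of the other lists lie between -0.08 and 0.23.

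Markers of the tissues that whole embryos and their membranes can carry were read beside these values. Of 12 genes of the embryo proper 11 were measured, with a median difference of -0.27 and 1 called, Sox10 at -0.78. In 5 of the 11, all lower, the unadjusted limma p was under 0.05. The summed level of all 11, on a linear scale in units of the array's 75th percentile, was 45.01 to 58.7 in hydroxyurea embryos and 51.1 to 65.4 in saline embryos. All 9 yolk sac endoderm markers were measured and all 9 differences were below 0, with a median of -0.78, 0 called and 0 at an unadjusted p under 0.05 in limma. Their sums were 21.5 to 103 in hydroxyurea embryos and 26.6 to 313 in saline embryos, where saline array 2 had the 313 and the other saline arrays at most 74.3. Without saline array 2 the yolk sac median was -0.14, with 6 of 9 below 0, and the median of the 36 genes was -0.64. Of 9 trophoblast and decidua markers 4 were measured, with a median difference of 1.69. Hand1 was lower at -1.42, while Prl3d1 at 2.06, Prl8a2 at 3.88 and Gcm1 at 1.31 were not called (limma adjusted p = 0.37, 0.38 and 0.36). Prl8a2 was well above background on 3 hydroxyurea and 2 saline arrays, and ranged from -6.84 to 6.03 on the hydroxyurea arrays. The other Gcm1 probes gave 0.18 and 0.26. The trophoblast and decidua sums were 24.8 to 74.9 in hydroxyurea embryos and 4.99 to 34.6 in saline embryos. Hydroxyurea array 3 had the 74.9, and on it Prl8a2 was at 6.03. Of 6 macrophage markers 3 were measured and 0 called, with a median difference of 0.08 and 1 of 3 below 0. The lower 1 was Csf1r at -1.51, at an unadjusted p under 0.05 in limma, with -0.44 on its other probe. Tyrobp differed by 0.515 and Adgre1 by 0.08. The macrophage sums were 0.588 to 1.91 in hydroxyurea embryos and 1.83 to 4.23 in saline embryos. The 8 primitive red cell markers had a median difference of -0.03. Markers not measured were absent from the array or did not pass the signal filter, so these values do not show that each tissue was present. Some measured markers were dim, such as Adgre1 of the macrophage list, well above background on 4 of 8 arrays. The part of these tissues in the results above was not tested.

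In the authors' deposited table, which lists the genes they took as changed, 1346 probes were given, of which 13 belonged to 10 of the 36 genes. These were Aspm, Cdc20, Cdc25b, Hmmr, Nusap1, Prc1, Pttg1, Racgap1, Tpx2 and Ube2c, and all 10 were among the 13 called here. Aurka, Cenpe and Cenpf, the other three, were not in the authors' deposited table. Its values correlated at r = 0.999977 with the scaled array values used here once each probe was centred on its median, so its differences are not a separate measurement.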

How the data were processed

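The deposited scanner output of 8 arrays held 59305 spots other than controls for 55681 probes, 26582 of them with a gene symbol. Per the file headers and the submitters' processing notes, the authors extracted spot intensity with Agilent Feature Extraction 11.5.1.1, whose processed signal is background-subtracted and spatially detrended. Here log2 of that signal was centred on each array's 75th percentile, spots of a probe were averaged, and 30677 probes complete and well above background on at least 4 arrays were kept. Spots of a probe counted as well above background where at least 0.5 of them were, a rule set so that the number kept equalled that of earlier processing of these data. The brightest probe stood for a gene.

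Groups were compared with limma 3.58.1 (lmFit and eBayes, R 4.3.3), all tests two-sided, and the fit was tested on simulated data. Probe pairs were compared by an exact permutation test with 70 relabellings. The deposited table holds log2 values of 1346 probes, centred by the authors on each probe's median, as a comparison with the scanner values showed. Array counts limit the precision.

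All 36 genes are named, with values by array for those called and for Ccnb1, Ccna2, Cdk1, Plk1, Mki67 and Top2a. Of each other list the called genes of lowest p, at most 4, are named, and always Foxm1, Mybl2, Wee1 and Cdc25a. The genes and lists were chosen with earlier results of these data known. Promoter shares count a gene once if any of its windows matched, a rule set after shares per window had been seen.

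Alternatives were normexp (offset 50), quantile normalisation, median centring, other filters, the mean of a gene's probes, slide as a block or alone, and leaving out each array. Normexp used the median spot signal, since the arrays' tables held no mean signal. The fits by slide row and the yolk sac values without saline array 2 were chosen after seeing the data. Probe and protein sequences were not used here.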

Additional observations from a re-analysis of the deposited data

Results flagged for a closer look

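Ube2c on saline array 2 stood apart from its group, with a log2 signal of 5.414 where the other saline arrays had 5.088 to 5.135. Its gap to the nearest of them was 0.855 of the group's range, above Dixon's 95% critical value. It was 1 of 72 groups of 4 arrays examined (1.39%), where chance gives about 1 in 20. Without that array Ube2c was still called lower in hydroxyurea embryos by limma.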

How the results depend on the processing

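No paired analysis was possible because the replicate numbers follow accession order and the labels do not tie arrays to experiments. The 36-gene median stayed below 0 in each of the 20 settings tried, from -0.64 to -0.49 with 1 array left out. With no filter on dim probes, which raised the features tested to 37134, 5 genes and 8 probes were called lower by limma. In that fit 0.932% of all features were called lower. Within slide 1 alone, slide 2 alone, slide row 1 alone and slide row 2 alone, 2 arrays against 2, 0 genes were called. Of all features, 0.13%, 0.013%, 0.151% and 0.212% were called lower in turn. At an unadjusted limma p under 0.05, 11, 14, 17 and 16 of the genes were lower. The slides alone also gave 0 called probes, with 15 and 16 lower at that p. The shares of all features and probes at that p were not counted in these fits. Leaving out 1 array gave 5 to 13 called genes, 8 to 17 called probes and, in the other cell cycle lists, 2 to 15 lower and 3 to 34 higher genes. Normexp called 14 of the genes, quantile normalisation 19, median centring 12 and the all-array filter 14 of 35, as Cenpf was left out. Of all features, these fits called 3.14%, 3.89%, 3.37% and 3.84% lower. Probe means called 12 of the genes, slide as a block 10 and slide row as a block 12, with 3.62%, 2.68% and 2.97% of all features called lower. Counted by gene over 18 settings, without the single slide rows, Cdc20 and Pttg1 lost the call in 8, Nusap1 in 7 and Aspm in 6. Signs turned only in genes that were not called. Bub1 was -0.0273 with quantile normalisation, Birc5 0.0276 with probe means, and Aurkb -0.0999 and Mki67 0.0403 on slide 1 alone. In slide row 1 alone Ect2 was 0.1748, Birc5 0.0937 and Mki67 0.1297, and in slide row 2 alone Bub1 was -0.1758 and Mad2l1 -0.0351. With 1 array left out, Bub1 ranged from -0.083 to 0.1754, Ect2 from -0.3615 to 0.0018, Mki67 from -0.1076 to 0.0565, Aurkb from -0.0758 to 0.2546 and Nek2 from -0.2007 to 0.0024. With only bases before the start, 54.8% of genes held a CHR and 32.3% a TTTGAA. The causes were not tested, and 4 arrays a group limit every p-value.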
